A study of Mus musculus with 12 samples.

Results

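The 9 genes described here are complement components (C1qa, C1qb, C1qc, C3 and C4b), complement receptors (C3ar1, Itgam and Itgb2) and the inhibitor Serping1, read by gene symbol from hippocampal RNA of 5xFAD and wild-type (WT) mice. All 9 were among the 24318 genes of a table of FPKM (a read density per transcript length and sequencing depth) from 6 libraries titled CG, and 1 of 7025 intervals in a table from 6 libraries titled AT was assigned to a member, C4b. The groups were CG 5xFAD, CG WT, AT 5xFAD and AT WT, with 3 libraries each from mice aged 7 months. The 5xFAD line expresses human transgenes with mutations of familial Alzheimer's disease, mutant APP among them, in neurons under regulatory sequence of Thy1, and the WT mice carry none. Per the design text, RNA was sequenced after rRNA depletion and also after tailing and treatment with RNase R, which digests linear RNA. The labels do not say which of these AT and CG stand for, nor whether each library is a different mouse. The p-values therefore cover only the spread of these libraries, which may be technical.

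Complement is a cascade of plasma and tissue proteins that marks targets for removal. C1q, built from the chains encoded by C1qa, C1qb and C1qc, binds a target and starts the classical pathway with cleavage of C4 and then C3, and Serping1 (C1 inhibitor) blocks the C1 proteases. Fragments of C3 are read by the receptor C3ar1 and by complement receptor 3, a pair of the integrin chains Itgam (CD11b) and Itgb2 (CD18). In brain, C1q comes mainly from microglia, C3 and C4 are made by glia, and microglia use complement receptor 3 to take up tagged synapses and debris.

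Thy1, whose regulatory sequence the transgenes carry, served as a check of genotype. It was at 1136 and 1172 FPKM in the libraries labelled 5xFAD replicates 1 and 2 and at 305 FPKM in the library labelled 5xFAD replicate 3, against 296, 308 and 340 FPKM in WT. By Thy1, the library labelled 5xFAD replicate 3 thus lay in the WT range and went against its label, so differences were fitted with and without it. Malat1, the only gene called over all 6 libraries, was listed at 0 in all 3 libraries labelled 5xFAD, against 3608, 3288 and 3425 FPKM in WT. By Malat1, the library labelled 5xFAD replicate 3 thus went with its label. Total FPKM was 385214 to 412157 per library. The smallest FPKM values gave relative depths of 0.796 to 1.16, with WT replicate 1 set to 1, and absolute depth is unknown for CG. The labelled tissue was checked with 7 markers of hippocampal neurons, which summed to 1514 to 1577 FPKM in the libraries labelled 5xFAD and to 1592 to 1640 FPKM in WT, and 0 of 7 were called. Choroid plexus markers summed to 55.5 to 489 FPKM in the libraries labelled 5xFAD and to 41.5 to 2831 FPKM in WT, with WT replicate 1 the highest.

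The promoters of C1qb, C1qc, Itgam and C3ar1 are shown because each of these genes was called higher in 5xFAD, as given below, and had an entry in RefSeq's promoter table (GRCm38.p6). That table held 5 of the 9 genes, and the window of the fifth, C3, which was not called, held 0 matches to the letters described here. Each line gives the 250 bases before the annotated start site, 5′ to 3′ on the strand of the gene. Capitals mark AGGAAG or its reverse complement CTTCCT, letters that many Ets-family factors of myeloid cells, PU.1 among them, can bind.
C1qb: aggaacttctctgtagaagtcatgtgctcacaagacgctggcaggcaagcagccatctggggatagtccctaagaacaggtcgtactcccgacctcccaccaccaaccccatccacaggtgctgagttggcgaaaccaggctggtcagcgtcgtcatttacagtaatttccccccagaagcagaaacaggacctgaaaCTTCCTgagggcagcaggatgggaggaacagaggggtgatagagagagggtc
C1qc: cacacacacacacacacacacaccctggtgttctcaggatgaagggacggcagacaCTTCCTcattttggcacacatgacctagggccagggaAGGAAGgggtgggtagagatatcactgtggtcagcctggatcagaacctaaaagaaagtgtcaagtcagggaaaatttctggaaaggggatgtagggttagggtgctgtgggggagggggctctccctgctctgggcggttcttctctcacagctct
Itgam: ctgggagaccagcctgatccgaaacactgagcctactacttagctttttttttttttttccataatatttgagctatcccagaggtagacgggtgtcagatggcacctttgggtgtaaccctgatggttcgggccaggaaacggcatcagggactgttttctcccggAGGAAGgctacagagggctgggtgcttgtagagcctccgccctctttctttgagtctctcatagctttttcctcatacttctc
C3ar1: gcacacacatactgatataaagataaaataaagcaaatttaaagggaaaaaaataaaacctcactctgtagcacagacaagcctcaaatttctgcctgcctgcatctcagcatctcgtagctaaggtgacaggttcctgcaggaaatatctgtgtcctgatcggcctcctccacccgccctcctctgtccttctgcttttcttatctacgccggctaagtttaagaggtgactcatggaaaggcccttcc
The C1qb window (chr4:136886201-136886450, minus strand) held 1 match, at position -52 relative to the start site. The C1qc window (chr4:136892915-136893164, minus strand) held 2, at positions -194 and -157 relative to it. The Itgam window (chr7:128062390-128062639, plus strand) held 1, at position -83, and the C3ar1 window (chr6:122856158-122856407, minus strand) held 0. Of 32851 RefSeq promoter windows of the same length, 29.5% held at least 1 match, and the letters were chosen after these sequences had been looked at, so the matches are a description only. In the same assembly C1qb, C1qc and C1qa are direct neighbours on chromosome 4.

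All 9 genes were above every WT library in 5xFAD replicates 1 and 2, and 8 of the 9 lay within the WT range in the library labelled 5xFAD replicate 3. Without that library, limma called 7 of the 9 higher in 5xFAD (adjusted p under 0.05 over 14527 genes), beside 1.18% of all genes tested called higher and 0.0138% called lower. Groups that did not overlap in this direction were found for 10.6% of all genes. Over all 6 libraries limma called 0 of the 9, beside 0.00690% of 14500 genes called in either direction, although all 9 had a positive difference with an unadjusted p under 0.05, beside 2.40% of all genes. Of all genes, 45.8% had a positive difference over the 6 libraries and 45.7% without the library labelled 5xFAD replicate 3. All 9 passed the filter of a mean of 0.5 FPKM, and would have passed on their WT mean alone. The median log2(FPKM + 1) difference of the 9 was 1.13 over 6 libraries and 1.68 over 5, against -0.01 and -0.02 over all genes tested. Over the 6 libraries the differences ran from 0.50 for Serping1 to 1.62 for C4b (SE 0.15 and 0.61), with unadjusted p from 0.0103 to 0.0434 and a limma adjusted p of 1.00 for each. For the library labelled 5xFAD replicate 3 by itself, the median of the 9 relative to the WT mean was 0.04. Since this is RNA of whole tissue, more cells of a type and more RNA per cell cannot be told apart.

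**Figure D1:**
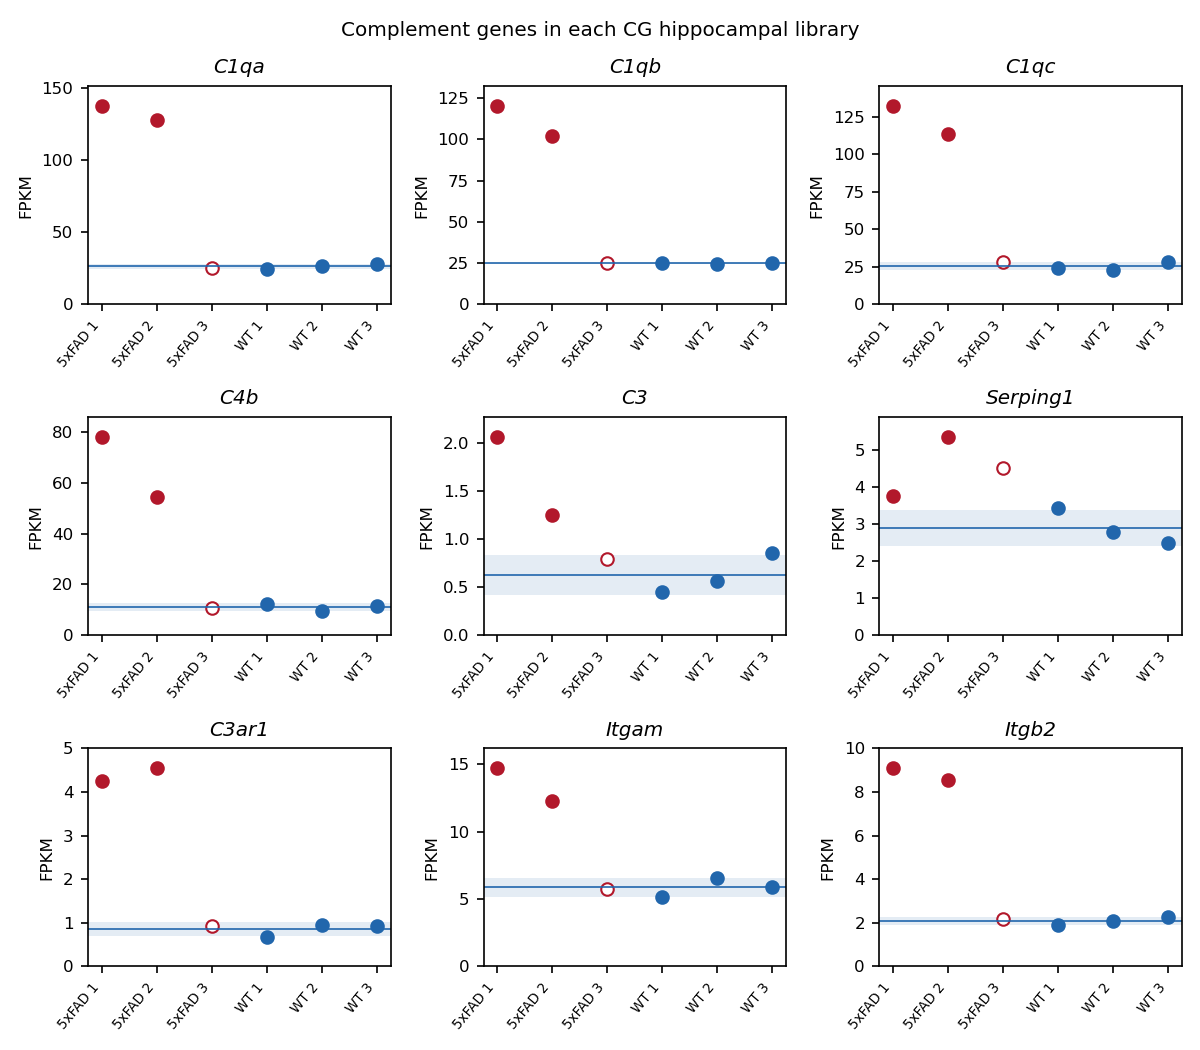
FPKM of the 9 genes in each CG library (points), with the 3 libraries labelled 5xFAD at the left (red; replicate 3 open) and the 3 WT libraries at the right (blue); the line and band give the WT mean ± SD, and each panel has its own axis from 0. 5xFAD replicates 1 and 2 lie above all WT points in every panel, and replicate 3 does so for Serping1 only.

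C1qa, which encodes the A chain of C1q, was at 138 and 128 FPKM in 5xFAD replicates 1 and 2 and at 25.1 FPKM in the library labelled 5xFAD replicate 3, against 24.6, 26.5 and 28.2 FPKM in WT. C1qb, the B chain, was at 120, 102 and 25.2 FPKM in the 3 libraries labelled 5xFAD, against 24.8, 24.3 and 25.3 FPKM in WT. C1qc, the C chain, was at 132, 113 and 27.9 FPKM in the libraries labelled 5xFAD, against 24.4, 23.1 and 28.2 FPKM in WT. For all 3 chains, replicates 1 and 2 stood far above a narrow WT range that replicate 3 shared. Without replicate 3, C1qa averaged 133 ± 7.12 FPKM in 5xFAD (SD, n = 2) and 26.4 ± 1.77 FPKM in WT (SD, n = 3), a ratio of 5.02 (limma log2 difference 2.29, SE 0.11, adjusted p = 0.000184). The ratio of means was 4.49 for C1qb (limma adjusted p = 0.000315) and 4.86 for C1qc (limma adjusted p = 0.000434). With replicate 3 the ratios were 3.66 for C1qa, 3.33 for C1qb and 3.61 for C1qc, none past the test. By size of limma p in the fit without replicate 3, C1qa, C1qb and C1qc were the 6th, 8th and 11th of 14527 genes.

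The 3 chains stayed close to equal FPKM, whatever their level. The highest chain was 1.15, 1.25 and 1.11 times the lowest in the libraries labelled 5xFAD and 1.02, 1.15 and 1.12 times in WT. Within libraries, the log2 ratio of C1qa to C1qc averaged 0.12 in 5xFAD replicates 1 and 2 and 0.07 in WT, a difference of 0.05 (two-sided exact permutation p = 0.6, and 0.9 with replicate 3). The ratio of C1qa to C1qb averaged 0.26 in 5xFAD replicates 1 and 2 and 0.09 in WT, with both 5xFAD libraries above WT and a difference of 0.17 (exact permutation p = 0.2, and 0.4 with replicate 3). Summed, the chains held 390, 343 and 78.2 FPKM in the 3 libraries labelled 5xFAD, against 73.9, 74.0 and 81.6 FPKM in WT. By FPKM, C1qa ranked 365th, 408th and 3094th of all genes in the libraries labelled 5xFAD, against 3100th, 2932nd and 2742nd in WT.

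C4b, whose product is split by the C1 proteases, had the highest fitted difference of the 9 genes without replicate 3. It was at 78.1 and 54.4 FPKM in 5xFAD replicates 1 and 2 and at 10.7 FPKM in the library labelled 5xFAD replicate 3, against 12.5, 9.53 and 11.4 FPKM in WT. Its mean of 66.2 ± 16.8 FPKM in 5xFAD (SD, n = 2) was 5.95 times that of 11.1 ± 1.497 FPKM in WT (SD, n = 3), a log2 difference of 2.45 (SE 0.18, limma adjusted p = 0.00104). With replicate 3 the ratio was 4.28, not past the test. The ratio of C4b to C1qa on the log2 scale was -0.82, -1.23 and -1.24 in the libraries labelled 5xFAD, against -0.98, -1.48 and -1.31 in WT. These ranges overlapped (difference 0.23 for replicates 1 and 2, exact permutation p = 0.4, and 0.5 with replicate 3). C4a, a near-identical neighbour that RefSeq lists as a transcribed pseudogene, was at 0.255 to 0.325 FPKM in the libraries labelled 5xFAD and 0.250 to 0.338 FPKM in WT. The sources used here do not say how the authors' counting split reads between C4b and C4a, so the C4b level is uncertain in that respect.

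C3, the protein on which the complement pathways converge, was low in every library. It was at 2.07 and 1.26 FPKM in 5xFAD replicates 1 and 2 and at 0.793 FPKM in the library labelled 5xFAD replicate 3, against 0.451, 0.568 and 0.855 FPKM in WT. Both replicates 1 and 2 were above WT, but they differed from each other by more than the whole WT range. The difference without replicate 3, 0.70 on the log2(FPKM + 1) scale (SE 0.20), did not pass (limma adjusted p = 0.309), and this scale understates changes of genes at such levels.

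Serping1 was the only one of the 9 genes above WT in all 3 libraries labelled 5xFAD, a pattern shown by 2.92% of all genes tested. It was at 3.77, 5.36 and 4.50 FPKM in those libraries, against 3.43, 2.79 and 2.48 FPKM in WT. The library labelled 5xFAD replicate 3 was between the other two here, unlike for the other 8 genes. The difference was 0.50 in both fits (SE 0.15 with replicate 3, SE 0.18 without), and neither passed (limma adjusted p = 1.00 and 0.617). Without replicate 3 it was 0.71 when 5xFAD replicate 1 was also left out and 0.30 when 5xFAD replicate 2 was. Relative to C1qa, Serping1 was 1.69 log2 units lower in 5xFAD replicates 1 and 2 than in WT (mean -4.88 in 5xFAD and -3.20 in WT, exact permutation p = 0.1, the smallest that 2 against 3 libraries allow, and 0.4 with replicate 3). Markers of meningeal fibroblasts, a cell type that can hold Serping1, summed to 28.0, 28.8 and 56.6 FPKM in the libraries labelled 5xFAD and to 91.8, 36.9 and 37.5 FPKM in WT, with 4 of 4 markers above 0 in every library and 1, Dcn, called lower without replicate 3. Of these sums, Igf2 held 10.4, 11.3 and 21.8 FPKM in the libraries labelled 5xFAD, against 59.9, 10.9 and 8.28 FPKM in WT. Like the summed choroid plexus markers, Igf2 was highest in WT replicate 1 and next in the library labelled 5xFAD replicate 3. The sums thus need not reflect fibroblasts alone. The part of these cells in the Serping1 values was not tested.

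**Figure D2:**
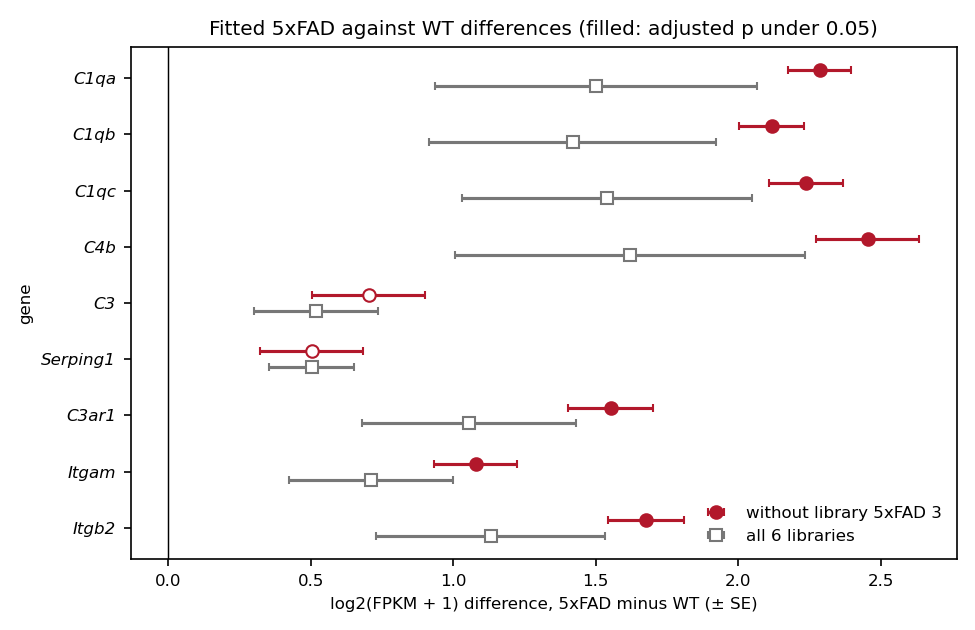
Fitted 5xFAD minus WT difference on the log2(FPKM + 1) scale with its standard error, for the 9 genes, without the library labelled 5xFAD replicate 3 (red circles, n = 2 against 3) and with all 6 libraries (grey squares, n = 3 against 3); filled symbols have a limma adjusted p under 0.05. Without that library 7 genes are filled, C4b is farthest right at 2.45, and Serping1 is at 0.50 in both fits.

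The 3 receptor genes were all among the 7 called, with unlike ratios. C3ar1, the receptor for the C3a fragment, was at 4.26 and 4.55 FPKM in 5xFAD replicates 1 and 2 and at 0.926 FPKM in the library labelled 5xFAD replicate 3, against 0.667, 0.951 and 0.926 FPKM in WT. Its mean in 5xFAD replicates 1 and 2 was 5.20 times that in WT, a ratio like those of the C1q chains at a much lower level (log2 difference 1.55, SE 0.15, limma adjusted p = 0.00342). With replicate 3 the ratio was 3.83, not past the test. The call made without replicate 3 ended when 5xFAD replicate 1 (limma adjusted p = 0.0655) or replicate 2 (0.0725) was left out as well, where 1 library was left in 5xFAD and was assumed to vary like the others.

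Itgb2, the beta chain of complement receptor 3, was at 9.11 and 8.53 FPKM in 5xFAD replicates 1 and 2 and at 2.17 FPKM in the library labelled 5xFAD replicate 3, against 1.88, 2.09 and 2.26 FPKM in WT. Itgam, its alpha chain, was at 14.7, 12.3 and 5.73 FPKM in the libraries labelled 5xFAD, against 5.14, 6.57 and 5.91 FPKM in WT. Replicates 1 and 2 were above WT for both chains, with a ratio of means of 4.25 for Itgb2 (limma log2 difference 1.68, SE 0.13, adjusted p = 0.00136) and of 2.30 for Itgam (limma log2 difference 1.08, SE 0.15, adjusted p = 0.0175). With replicate 3 the ratios were 3.18 for Itgb2 and 1.86 for Itgam, neither past the test. The Itgam call ended when 5xFAD replicate 1 (limma adjusted p = 0.216), 5xFAD replicate 2 (0.0959) or WT replicate 3 (0.0813) was left out in addition. Within libraries, the log2 ratio of Itgam to Itgb2 was 0.69, 0.53 and 1.40 in the libraries labelled 5xFAD, against 1.45, 1.65 and 1.38 in WT. The ratio was thus lower by 0.89 without overlap in replicates 1 and 2, at the smallest p the design allows (exact permutation p = 0.1, and 0.18 adjusted over 18 ratios). With replicate 3 the difference was -0.62 (exact permutation p = 0.2).

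Itgb2 also pairs with other alpha chains, and Itgax (CD11c), the alpha chain of complement receptor 4, was among the other complement genes listed. Itgax was at 7.73 and 4.58 FPKM in 5xFAD replicates 1 and 2 and at 0.0652 FPKM in the library labelled 5xFAD replicate 3, against 0.0188, 0.0712 and 0.115 FPKM in WT. It passed the filter through the 5xFAD libraries alone. Of the summed FPKM of the 4 alpha chains Itgam, Itgax, Itgal and Itgad, Itgax made up 34.0%, 26.5% and 1.08% in the libraries labelled 5xFAD, against 0.354%, 1.04% and 1.88% in WT. Itgal, the alpha chain of LFA-1, did not exceed 0.363 FPKM in any library. The summed alpha chains were 2.50, 2.03 and 2.78 times Itgb2 in the libraries labelled 5xFAD and 2.83, 3.29 and 2.70 times in WT. With Itgax included, 5xFAD replicates 1 and 2 were thus still below every WT library, and replicate 3 was within the WT range. This difference was not tested. This sum was formed after the values had been seen.

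**Figure D3:**
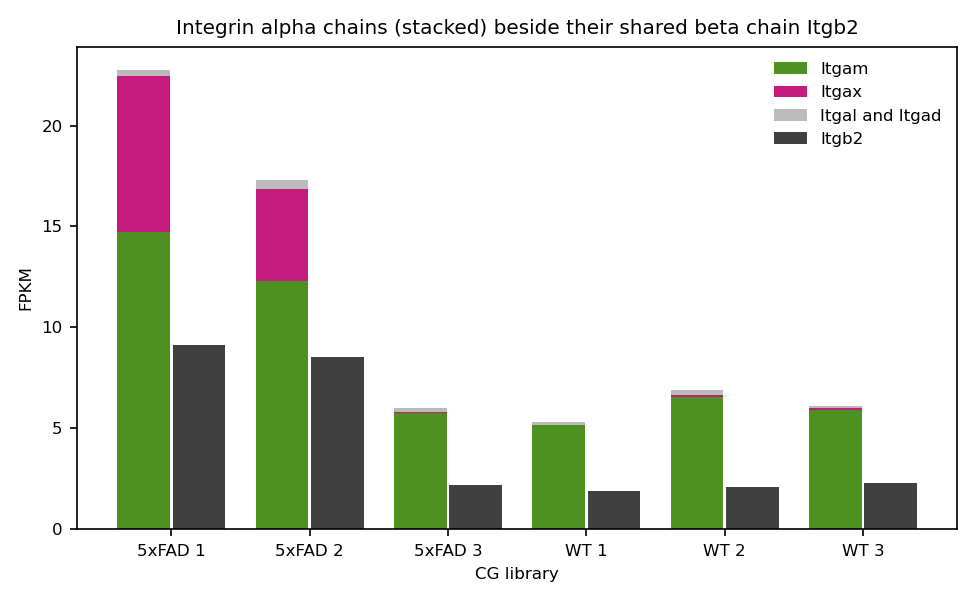
FPKM per CG library of the alpha chains that pair with Itgb2 (stacked bars) and of Itgb2 itself (dark bars), with the libraries labelled 5xFAD at the left and WT at the right. Itgax makes up 34.0% and 26.5% of the stack in 5xFAD replicates 1 and 2, against at most 1.88% in WT, and Itgb2 is at 9.11 and 8.53 FPKM in those replicates, against 1.88 to 2.26 FPKM in WT.

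Ordered by WT level, the genes ran from C1qa, C1qc and C1qb through C4b at 11.1 ± 1.497, Itgam at 5.87 ± 0.717, Serping1 at 2.90 ± 0.484 and Itgb2 at 2.08 ± 0.194 to C3ar1 at 0.848 ± 0.157 and C3 at 0.625 ± 0.208 FPKM (SD, n = 3). The WT ranges of C1qa, C1qc and C1qb overlapped, as did those of C3ar1 and C3. In 5xFAD replicates 1 and 2, Itgb2 at 8.82 ± 0.406 FPKM was above Serping1 at 4.56 ± 1.12 FPKM, and C3ar1 at 4.41 ± 0.208 FPKM overlapped Serping1 (SD, n = 2).

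Markers of microglia and of reactive astrocytes moved with these genes. Summed over 10 homeostatic microglia genes, which include the growth factor receptor Csf1r, the level was 365, 379 and 144 FPKM in the libraries labelled 5xFAD, against 127, 155 and 143 FPKM in WT. Without the library labelled 5xFAD replicate 3, 6 of those 10 genes were called higher, with a median log2 difference of 1.27. Over 8 plaque-associated microglia genes the sums were 437, 346 and 78.9 FPKM in the libraries labelled 5xFAD, against 91.9, 70.9 and 87.9 FPKM in WT. Of these 8, 6 were called without replicate 3, but Cst7 and Clec7a averaged 0.275 and 0.218 FPKM in WT and passed the filter through the 5xFAD libraries alone. Over 5 reactive astrocyte genes they were 698, 541 and 142 FPKM in the libraries labelled 5xFAD, against 158, 132 and 136 FPKM in WT, and 4 of 5 were called without replicate 3. The 6 astrocyte identity genes summed to 1031 to 1281 FPKM in the libraries labelled 5xFAD and 959 to 1262 FPKM in WT, and 0 of 6 were called. However, 3 of the 6 were above WT in 5xFAD replicates 1 and 2, beside 10.6% of all genes tested. Of these, Aqp4 was at 51.6, 54.8 and 40.0 FPKM in the libraries labelled 5xFAD, against 33.9, 38.3 and 33.4 FPKM in WT. With replicate 3, 0 genes of these 4 lists were called. Their part in the values of the 9 genes was not tested beyond the ratios that follow.

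Other myeloid cells that carry Itgam and Itgb2 were represented at low levels. The 7 markers of monocytes and border macrophages summed to 2.11, 4.17 and 4.72 FPKM in the libraries labelled 5xFAD, against 3.01, 2.24 and 2.53 FPKM in WT. The 5 neutrophil markers found, of 6 listed, summed to 0.830, 3.57 and 1.33 FPKM in the libraries labelled 5xFAD, against 0.647, 0.924 and 1.27 FPKM in WT. No marker of either list was at 0 in all 6 libraries, 5 of 7 and 1 of 5 were above 0 in each library, and 0 were called. The summed levels of oligodendrocytes (1414 to 1768 FPKM in the libraries labelled 5xFAD, 1434 to 1599 in WT), endothelium (13.4 to 20.1, against 15.1 to 17.0 in WT) and blood (68.5 to 244, against 82.2 to 167 in WT) overlapped between genotypes, though each of the 4 oligodendrocyte markers was above WT in 5xFAD replicates 1 and 2. Markers of liver, the main source of plasma complement, summed to at most 0.318 FPKM in the libraries labelled 5xFAD and 0.433 FPKM in WT.

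Set against the homeostatic microglia genes of the same library, the 9 genes fell into different patterns. The log2 ratio of C1qa to the mean log2 level of those genes was 2.56, 2.35 and 1.20 in the libraries labelled 5xFAD, against 1.40, 1.19 and 1.36 in WT. Relative to these markers, C1qa was thus at 2.20 times its WT level in replicates 1 and 2, without overlap with WT. It was 1.96 times for C1qb, 2.13 for C1qc, 2.57 for C4b, 2.30 for C3ar1 and 1.86 for Itgb2, each without overlap. Itgam was at 1.01 times its WT ratio, with 1 of its 5xFAD libraries above WT and the other below (exact permutation p = 0.9). Serping1 was at 0.683 times its WT ratio, below all WT libraries, and C3 overlapped WT. None of these passed after adjustment over 18 ratios, where the smallest exact permutation p, 0.1, became 0.18 without replicate 3, and 0.643 was the smallest adjusted value with it. Relative to reactive astrocyte genes, C4b was at 1.93 and Serping1 at 0.512 times the WT level in replicates 1 and 2, both without overlap with WT (exact permutation p = 0.1 each, and 0.3 for C4b and 0.5 for Serping1 with replicate 3).

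**Figure D4:**
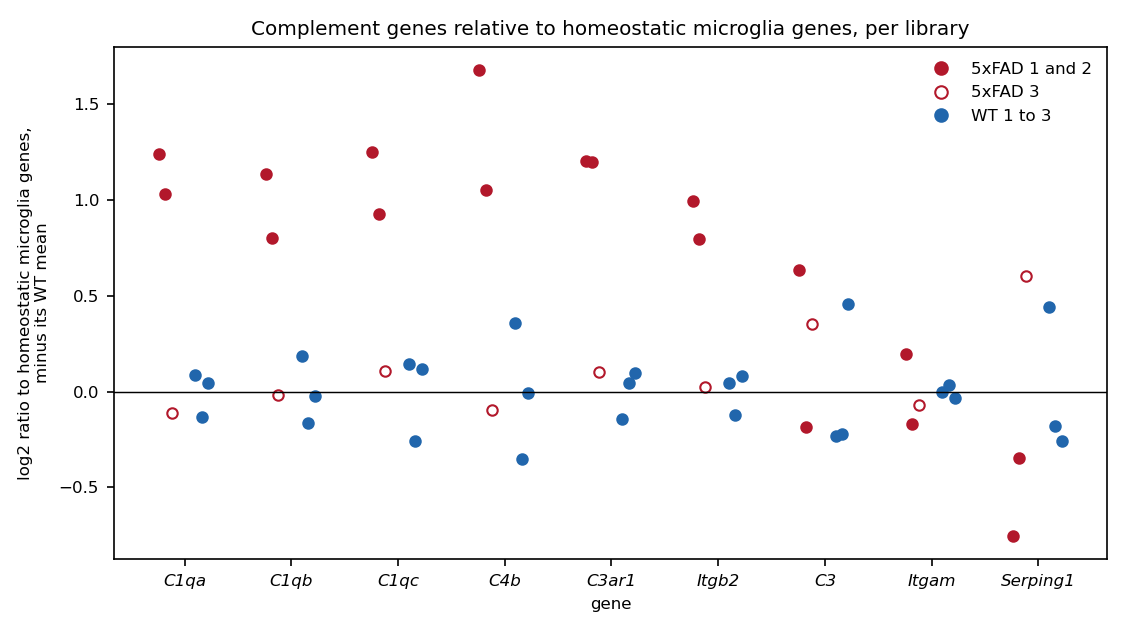
Log2 ratio of each gene to the mean log2 level of 10 homeostatic microglia genes in the same library, minus its WT mean, with the libraries labelled 5xFAD left (red; replicate 3 open) and WT right (blue) for each gene. C1qa, C1qb, C1qc, C4b, C3ar1 and Itgb2 lie above all WT points in 5xFAD replicates 1 and 2, Itgam lies on both sides of zero and Serping1 below.

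The genes nearest to C1qa, C4b, C3 and Serping1 over the 6 libraries were ranked by the root mean square difference of log2(FPKM + 1) centred on WT, where a smaller value means a closer pattern. C1qa was closest to Ctss, a lysosomal protease (difference 0.07), followed by C1qc (0.12) and C1qb (0.12). C4b was closest to Cd68, a lysosomal membrane protein of phagocytes (0.13), then to Gfap, the astrocyte filament (0.13), and Ctss (0.17). C3 was closest to Gsdmd (0.07), Tmem106a (0.10) and Cmtm3 (0.11). Serping1 was closest to Klf2 (0.08), a transcription factor of endothelium, then Phlda3 (0.11) and Ppap2c (0.12). Its nearest gene among the other 8 was C3 (0.37), which ranked 3324th of all genes for it.

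Other complement genes, together with 6 neuronal genes that share the C1q domain, were listed as 58 genes, 6 of them at 0 in all CG libraries and 29 with a mean below 0.5 FPKM over the 6. Of the 30 tested without the library labelled 5xFAD replicate 3, 1 was called higher (Itgax, limma log2 difference 2.71, SE 0.21, adjusted p = 0.00131) and 0 lower, with 16 differences positive and a median of 0.00, against -0.02 over all genes tested. With that library, 0 of 29 were called, and 13 were positive.

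The C1 proteases and the terminal pathway were at low levels. None of the 6 other classical pathway genes, among them those encoding the C1 proteases, reached a mean of 0.5 FPKM. The alternative pathway gene Cfp (properdin), which stabilises the C3 convertase, averaged 4.41 ± 1.65 FPKM in 5xFAD replicates 1 and 2 (SD, n = 2) and 4.44 ± 1.17 FPKM in WT (SD, n = 3). In the lectin pathway, Masp1 averaged 1.92 ± 0.390 FPKM in 5xFAD replicates 1 and 2 and 1.66 ± 0.184 FPKM in WT, and Masp2 averaged 0.728 ± 0.0296 FPKM in 5xFAD replicates 1 and 2 and 0.445 ± 0.402 FPKM in WT, neither past the test. Masp2 passed the filter only without replicate 3, and through the 5xFAD libraries. With replicate 3 the means of the libraries labelled 5xFAD were 4.37 FPKM for Cfp, 1.71 FPKM for Masp1 and 0.493 FPKM for Masp2. Of the 7 terminal pathway genes, which build the membrane attack complex, C8g alone was tested, and no terminal gene exceeded 0.980 FPKM in any library.

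Regulators gave 13 tested genes, 5 of them with positive differences and 0 called without the library labelled 5xFAD replicate 3. Clu (clusterin), an abundant astrocyte chaperone that blocks the terminal complex, was at 511, 514 and 331 FPKM in the libraries labelled 5xFAD, against 400, 323 and 327 FPKM in WT (limma adjusted p = 0.207 without replicate 3, and 0.0485 with array quality weights). Cd55, which speeds decay of C3 convertases, was at 1.24, 2.32 and 3.19 FPKM in the libraries labelled 5xFAD, against 3.24, 3.42 and 2.35 FPKM in WT (limma adjusted p = 0.751). The neuronal CUB-domain genes Csmd1, Sez6, Sez6l and Sez6l2 and the terminal inhibitor Vtn had differences of -0.03, -0.22, -0.12, -0.02 and 0.12 on the log2 scale without replicate 3, none past the test. Sez6 was at 51.3, 43.0 and 51.3 FPKM in the libraries labelled 5xFAD, against 53.3, 57.2 and 54.5 FPKM in WT (limma unadjusted p = 0.0999 over 6 libraries). With replicate 3, 4 of 13 regulators had positive differences and 0 were called.

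Of the other receptors and binding proteins, C5ar1, the receptor for C5a, was at 0.759, 0.974 and 0.468 FPKM in the libraries labelled 5xFAD, against 0.382, 0.321 and 0.420 FPKM in WT. It was above WT in all 3, a pattern shown by 2.92% of all genes tested, and did not pass the test (limma adjusted p = 0.623 without replicate 3). C5ar1 averaged 0.374 FPKM in WT and passed the filter through the libraries labelled 5xFAD alone. The other genes named from this list, Calr, Lrp1, C1qbp and Cd93, differed by -0.08, 0.12, 0.01 and 0.00 on the log2 scale without replicate 3, none past the test. With it, 3 of 6 genes of this list had positive differences and 0 were called.

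**Figure D5:**
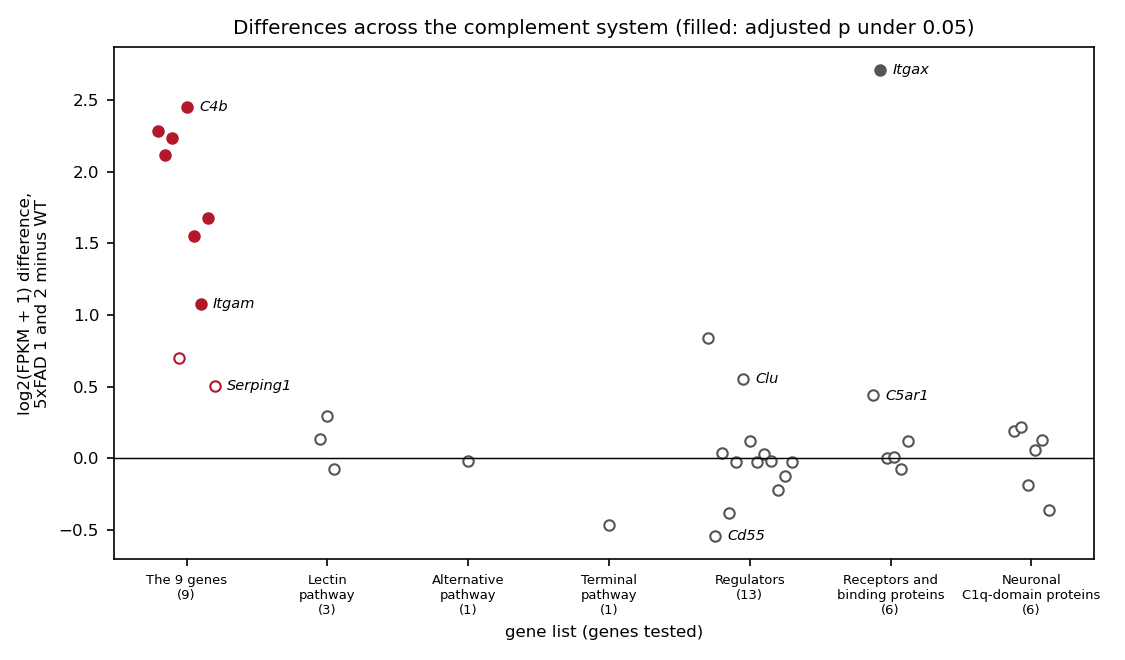
Difference of 5xFAD replicates 1 and 2 minus WT on the log2(FPKM + 1) scale for the 9 genes (red) and for the other complement genes tested, by list (grey; the number tested is under each list name); filled points have a limma adjusted p under 0.05. Of the grey points Itgax alone, at 2.71, is filled.

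In the AT table, 1 interval was assigned to C4b, chr17:34880706-34960185 in mm9. Its ends are 79480 bases apart, against a median of 9517 over the 7025 intervals, and 4.65% were at least as long. In RefSeq's gene order C4b and C4a lie on either side of 4 genes, 3 of them pseudogenes, so an interval of this length need not lie within C4b. Whether its ends lie in C4b and C4a, and which of these near-identical copies its reads came from, was not tested. The deposited signal was 7.80, 53.1 and 3.11 in 5xFAD, against 0.374, 0.456 and 3.74 in WT, which are 9, 235 and 13 recovered reads in 5xFAD and 1, 2 and 16 in WT. The groups overlapped, and 5xFAD replicate 2 alone held 91.4% of the 5xFAD reads. The genotypes of the AT libraries are those of the labels and were not checked. The log2(signal + 1) difference was 2.56 (SE 0.89, limma adjusted p = 0.723), and 1.51 without 5xFAD replicate 2. In the authors' deposited table its log2 ratio was 3.72 with an adjusted p of 0.771, while 264 of the 7025 intervals had an adjusted p under 0.05 there. Limma called 0% of the 7025 intervals, with 5.68% (399) at an unadjusted p under 0.05, while edgeR called 0 and DESeq2 called 1, which was not C4b. The AT libraries held 191408, 683540 and 659414 recovered reads in 5xFAD and 438790, 695539 and 695528 in WT, so 5xFAD replicate 1 was the shallowest.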

How the data were processed

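The CG table holds FPKM per gene as deposited by the authors. The sources used here do not give their quantifier, annotation, strand setting or denominator. The AT table holds a signal per mm9 interval, and the authors' log2 ratio with its p-value, raw and adjusted, per the file headers. Dividing the deposited signal by its smallest step gave whole reads (tolerance 0.01) for 100% of values in each AT library. Ribo-Zero depletion and a NEBNext Ultra kit are named per the labels' protocols, and mm9 and DESeq per the submitters' processing notes. FPKM depends on what else a library holds. An exact 0 can be a failed estimate, as may be so for Malat1, listed at 0 in all CG libraries labelled 5xFAD.

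Each table was fitted whole with limma 3.58.1 (R 4.3.3, mean trend) on log2(value + 1), for features averaging 0.5 or more. Tests were two-sided, and calls needed a Benjamini-Hochberg adjusted p under 0.05. Ratios within libraries used log2 of the FPKM and exact permutation over libraries, where 3 against 3 and 2 against 3 cannot go below 0.1. edgeR 4.0.16 and DESeq2 1.42.0 were run on recovered AT reads only, and the fits were tested on simulated data. The genes, gene lists, naming rule and the fit without the library labelled 5xFAD replicate 3 were chosen with earlier results of these data known. Named were the 9 genes, and of the other complement genes those called, those averaging over 20 FPKM, and up to 2 more per list with the smallest p, apart from an item that is not reported here. Nearest genes were the 3 with the smallest root mean square difference, named for C1qa, C3, C4b and Serping1. The promoter motif was chosen from general knowledge after the sequences were seen. Alternatives were other pseudocounts, filters, scalings, weights, a replicate block and leaving out each library.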

Additional observations from a re-analysis of the deposited data

How the results depend on the processing

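Over the 6 CG libraries, leaving out 1 library gave 1 to 174 genes and 0 to 7 of the 9 genes called, the high values without 5xFAD replicate 3, and 0 of the 9 were called under any other setting tried. Without that library, 174 genes were called, with 35 to 174 when a further library was left out (35 without 5xFAD replicate 1, 52 without 5xFAD replicate 2, 84 without WT replicate 3, 106 without WT replicate 2), and 5 to 7 of the 9 genes. C1qa, C1qb, C1qc, C4b and Itgb2 were called in all 14 alternatives of this fit, C3ar1 in 12, Itgam in 11, and C3 and Serping1 in 0. No difference of the 9 genes changed sign in either fit. A pseudocount of 1 in the ratios turned C3 against homeostatic microglia genes from 0.23 to -0.41 and moved Itgam against Itgb2 to -0.60. In AT, array quality weights called 2 junctions, DESeq2 called 1, and the C4b difference was 1.51 to 3.37 when 1 library was left out. Same-numbered CG libraries deviated together by r = 0.415, 0.279 and 0.0398, against -0.358 to 0.153 for libraries of unlike number. The values for numbers 1 and 2 were thus the highest, while the library labelled 5xFAD replicate 3 correlated best with WT replicate 2 (r = 0.147). The numbers were not taken as pairs in the main fits, and a fit with the number as a block was run as an alternative. With the replicate block, 1 gene and 0 of the 9 were called over 6 CG libraries, 201 genes and 7 of the 9 without 5xFAD replicate 3, and 0 junctions in AT, with C4b at 2.56. With 2 libraries left in 5xFAD, and depth known only in relative terms, low genes such as C3 give imprecise values.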

Other observations

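The C1q domain is shared by secreted synaptic organisers of neurons, which formed a list of their own among the 58 other genes listed. All 6 of these genes were tested, and 0 were called in either CG fit. C1ql2, a protein of mossy fibre synapses, was at 22.6, 24.4 and 20.1 FPKM in the libraries labelled 5xFAD, against 22.1, 16.6 and 21.8 FPKM in WT. C1ql3 was at 41.8, 40.1 and 54.8 FPKM in the libraries labelled 5xFAD, against 43.1, 45.7 and 52.0 FPKM in WT. C1ql1 averaged 5.13 ± 0.378 FPKM in 5xFAD replicates 1 and 2 (SD, n = 2) and 4.41 ± 0.737 FPKM in WT (SD, n = 3). Cbln4 was at 2.82, 4.26 and 5.81 FPKM in the libraries labelled 5xFAD, against 3.71, 9.59 and 2.86 FPKM in WT, the widest WT range of the named genes in this list relative to its mean. The median difference over the list was 0.09 on the log2(FPKM + 1) scale without the library labelled 5xFAD replicate 3, against 2.29, 2.12 and 2.24 for C1qa, C1qb and C1qc.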
